A study of Mus musculus with 9 samples.

Results

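Electrical conduction through the heart was examined at the level of RNA with 8 genes: the sodium channel subunits Scn4b and Scn4a, the connexins Gja1, Gja3, Gja5 and Gjc1, and the pacemaker channels Hcn2 and Hcn4. They were chosen by symbol for these roles, with earlier results of these data known. All 8 were found among the 54532 gene identifiers of the count table. The hearts came from male wild-type mice of the strain C57BL/6J, between 8 and 10 weeks old, 3 independent mice in each of 3 groups. In the sham group the suture was passed under the left anterior descending coronary artery without being tied. In the MIRI group (myocardial ischemia/reperfusion injury) the artery was tied for 30 min and then reperfused for 24 h, and the mice received saline. The GXNI group had the same injury and received Guanxinning Injection, a preparation of the medicinal plants Danshen and Chuanxiong, at 9 mL/kg through the tail vein during ischemia. Each mouse gave 1 library, named here by its group and number, with a total of 17119454 to 22811295 counts.

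An action potential spreads through the myocardium in 2 steps that these genes serve. Voltage-gated sodium channels open and depolarize the membrane of a cell, and gap junctions built of connexins carry the current to the next cell. The HCN channels carry the inward current that depolarizes pacemaker cells between beats, and they are known above all from the sinus node and the conduction system. The ventricular wall is made mostly of working cardiomyocytes, and cells of the nodes, the Purkinje network, the arterial endothelium and the nerves are a small part of a piece of heart.

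The samples are labelled as cardiomyocytes, but the RNA was taken from heart tissue, and markers of other cells were present in every library. Summed cardiomyocyte markers reached 26916 to 43901 CPM (counts relative to the library total, scaled by TMM factors), endothelial markers 842 to 1401 CPM and fibroblast markers 703 to 1886 CPM. In such bulk samples, fewer cells of a type and less RNA per cell cannot be told apart. The 10 neutrophil markers summed to 156 to 209 CPM in sham, 233 to 1161 CPM in MIRI and 627 to 895 CPM in GXNI, but Lcn2 alone made up 204 CPM of the sum in MIRI 2 and 575 CPM in GXNI 1. The other 9 summed to 30.7 to 59.3 CPM in sham, to 773, 28.9 and 723 CPM in MIRI 1 to 3 and to 51.9, 246 and 763 CPM in GXNI 1 to 3. They were thus above sham in 4 of the 6 injured libraries and not in MIRI 2 and GXNI 1, and their part in the results was not tested. Within the injured groups the libraries differed strongly. On the first principal component of all filtered genes, which held 66.7% of the variance, the sham libraries lay between -55.5 and -48.8, MIRI 1 and 3 at 57.2 and 77.8, and the library labelled MIRI 2 at -40.7. GXNI 1, 2 and 3 lay at -40.4, 16.7 and 88.0, and the library nearest to GXNI 3 by rank correlation was MIRI 3 (rho = 0.987). MIRI 2 thus stood apart from the other libraries of its label, while the GXNI libraries were spread along the component, with GXNI 3 at the end of MIRI 3. The labels of MIRI 2 and GXNI 3 are in doubt. The fold changes tabulated by the study are known to fit these counts only if these labels are exchanged. That comparison was not repeated here. MIRI and GXNI follow the deposited labels throughout, so every mean, fold change and call that includes MIRI 2 or GXNI 3 depends on labels that may be wrong. Results are therefore also given without these libraries, and such values do not depend on how both are labelled.

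Reads were assigned to whole genes, so the sequences that members share bear on how well their counts can be told apart. The 4 connexins each have their coding sequence in 1 exon. The first 45 coding bases are printed because this start is where the family likeness can be seen at once. Capitals mark the stretch that all 4 hold, and the sequences are from the GENCODE M21 transcripts of GRCm38.
Gja1: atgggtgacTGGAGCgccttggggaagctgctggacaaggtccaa
Gja3: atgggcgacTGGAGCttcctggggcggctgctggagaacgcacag
Gja5: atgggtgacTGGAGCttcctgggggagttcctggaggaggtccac
Gjc1: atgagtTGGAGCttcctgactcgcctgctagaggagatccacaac
Beyond this start the identical stretches were short. Among the 6 connexin pairs the longest was 21 bases, shared by Gja3 and Gja5. Hcn2 and Hcn4 shared 32 bases, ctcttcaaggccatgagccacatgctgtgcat, from position 1171 of the Hcn2 and 1405 of the Hcn4 coding sequence. Of the 8 members, only Gja5 overlapped other annotated genes, with 165 exonic bases shared with Gpr89 on the opposite strand, and no strand setting of the counting is given in the sources used here, so Gja5 counts are uncertain to that extent.

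Levels between genes were compared as CPM per kb of summed exon length. In sham hearts Gja1, which encodes Cx43, the main connexin of the working ventricle, stood far above the others at 32.0 ± 12.9 CPM per kb (SD, n = 3). Scn4b followed at 7.01 ± 1.11, Hcn2 at 6.84 ± 0.376, Gja3 at 5.85 ± 0.414 and Gjc1 at 4.04 ± 0.629 CPM per kb. The lowest levels per kb were those of Scn4a at 2.97 ± 0.289, Hcn4 at 1.77 ± 0.477 and Gja5 at 1.56 ± 0.306. In this order the sham libraries of Scn4b and Hcn2 overlapped, as did those of Hcn4 and Gja5, while the other neighbours did not overlap. With the longest annotated transcript as the length, Gja5 moved above Hcn4, and Gja1 rose to 84.3 CPM per kb, as its summed exons cover 10257 bases and its longest transcript 3889 bases.

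**Figure D1:**
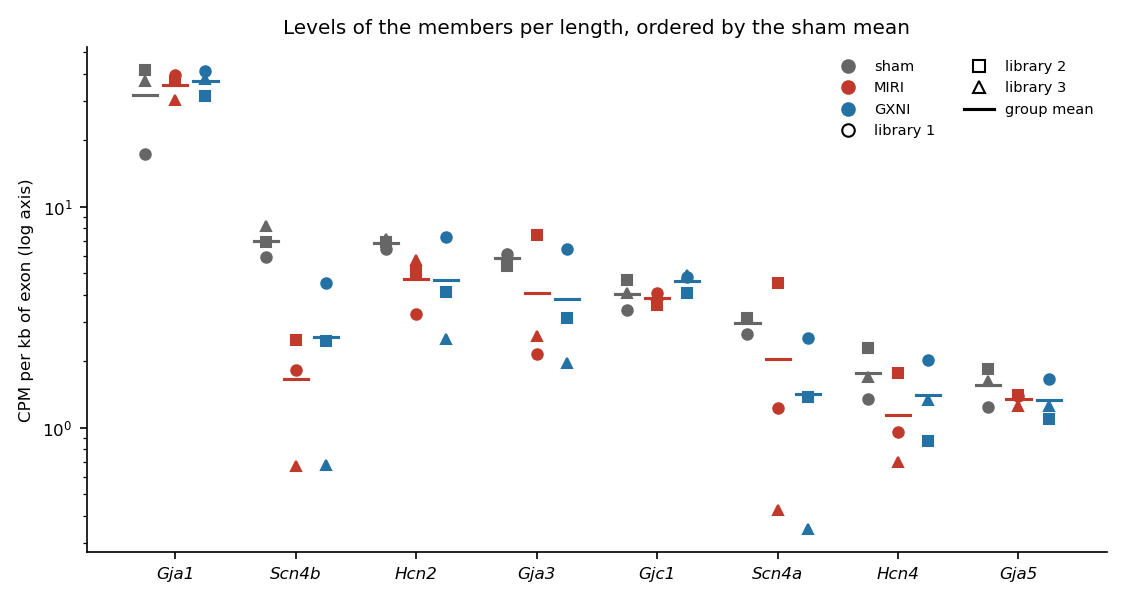
Level of each member in CPM per kb of exon on a log axis, with 1 point per library coloured by group, shaped by library number, and a line at the group mean. Gja1 lies above every other member in each of the 9 libraries, and the points of Scn4b, Scn4a and Gja3 spread widest in the injured groups.

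The order changed after injury mainly through Scn4b. In MIRI hearts the mean levels per kb ran Gja1, Hcn2, Gja3, Gjc1, Scn4a, Scn4b, Gja5 and Hcn4, with Scn4b at 1.66 ± 0.920 CPM per kb. Its MIRI libraries overlapped those of both Scn4a and Gja5. In GXNI hearts the order was Gja1, Hcn2, Gjc1, Gja3, Scn4b, Scn4a, Hcn4 and Gja5, and Scn4b was at 2.56 ± 1.93 CPM per kb. Without MIRI 2 the MIRI order was Gja1, Hcn2, Gjc1, Gja3, Gja5, Scn4b, Hcn4 and Scn4a, with Scn4b at 1.24 ± 0.813 CPM per kb (n = 2). Without GXNI 3 the GXNI order was Gja1, Hcn2, Gja3, Gjc1, Scn4b, Scn4a, Hcn4 and Gja5, with Scn4b at 3.502 ± 1.45 CPM per kb (n = 2). Among the 4 connexins, Gja1 made up 61.7% to 83.8% of the summed level per kb in the 9 libraries. Its share was 71.8% ± 8.81 in sham, 79.4% ± 4.50 in MIRI and 79.2% ± 3.003 in GXNI (n = 3 each). The groups overlapped (two-sided exact permutation p = 0.3 for MIRI and 0.2 for GXNI against sham, or 0.675 for both after Benjamini-Hochberg adjustment over 18 tests of shares and ratios, where 0.1 before adjustment is the smallest p that 3 against 3 allows). Without MIRI 2 the Gja1 share in MIRI was 81.7% ± 3.06 and both libraries lay above all sham libraries, and without GXNI 3 it was 77.7% ± 2.03 in GXNI, where the groups still overlapped (n = 2 each). These differences were not tested.

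The first comparison, MIRI against sham, asked how conduction genes differed 1 day after the injury. A gene counts as called here when it differed by 1.5 times or more and edgeR's quasi-likelihood test gave it an unadjusted p no larger than 0.01. Scn4b was lower in MIRI hearts, and no other member was called. This is 1 of 8 members, beside 8.97% of the 14644 genes tested, of which 2.82% were called lower. With Benjamini-Hochberg adjusted p at most 0.05, 0 members and 0.0137% of all genes were called. An unadjusted p under 0.05 was reached by 2 members, Scn4b and Hcn2, and by 28.3% of all genes. The fold changes of 7 of 8 members were below 0, with a median of -0.53, while 50.1% of all genes lay below 0 and the median of all genes was -0.00.

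Scn4b, on chromosome 9 at 45138395 to 45154152 (GRCm38, plus strand), encodes a small auxiliary beta subunit that sits beside the pore and shapes how the sodium channel gates. It had 29.6, 34.6 and 40.6 CPM in the sham libraries 1 to 3. The MIRI libraries had 9.07, 12.4 and 3.33 CPM. All MIRI libraries lay below all sham libraries, a separation also seen in 33.7% of all genes tested and, toward lower levels, in 17.0%. The mean was 4.204 times lower in MIRI, with a log2 fold change of -2.07 (SE 0.44), an unadjusted p of 0.00216 and an adjusted p of 0.0759 by edgeR's quasi-likelihood test. MIRI 2, at 12.4 CPM, was also below sham for this gene. Summed cardiomyocyte markers were 43901 CPM in MIRI 2, the highest of the 9 libraries, and 26916 and 30847 CPM in the other MIRI libraries, and their part in the difference was not tested. DESeq2 gave an adjusted p of 0.000137 for Scn4b and called 8.07% of all genes, and a single fit of all 9 libraries no longer called it.

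Scn4a, on chromosome 11 at 106318592 to 106353288 (minus strand), encodes a pore-forming alpha subunit known best from skeletal muscle. Its sham libraries were close together at 18.6, 22.1 and 22.1 CPM, while the MIRI libraries had 8.60, 31.7 and 2.99 CPM. MIRI 2 was above every sham library and the others were below, so the groups overlapped and the log2 fold change of -0.53 (SE 0.73, adjusted p = 0.641, edgeR quasi-likelihood) did not pass. Of 12 skeletal muscle markers 7 stayed under 1 CPM in every library, among them the fast myosins Myh1, Myh2 and Myh4, and Myh4 had no count in any library. The summed list was at 20.1 to 26.9 CPM in sham and 20.6 to 30.3 CPM in MIRI, and most of it came from Myl1.

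**Figure D2:**
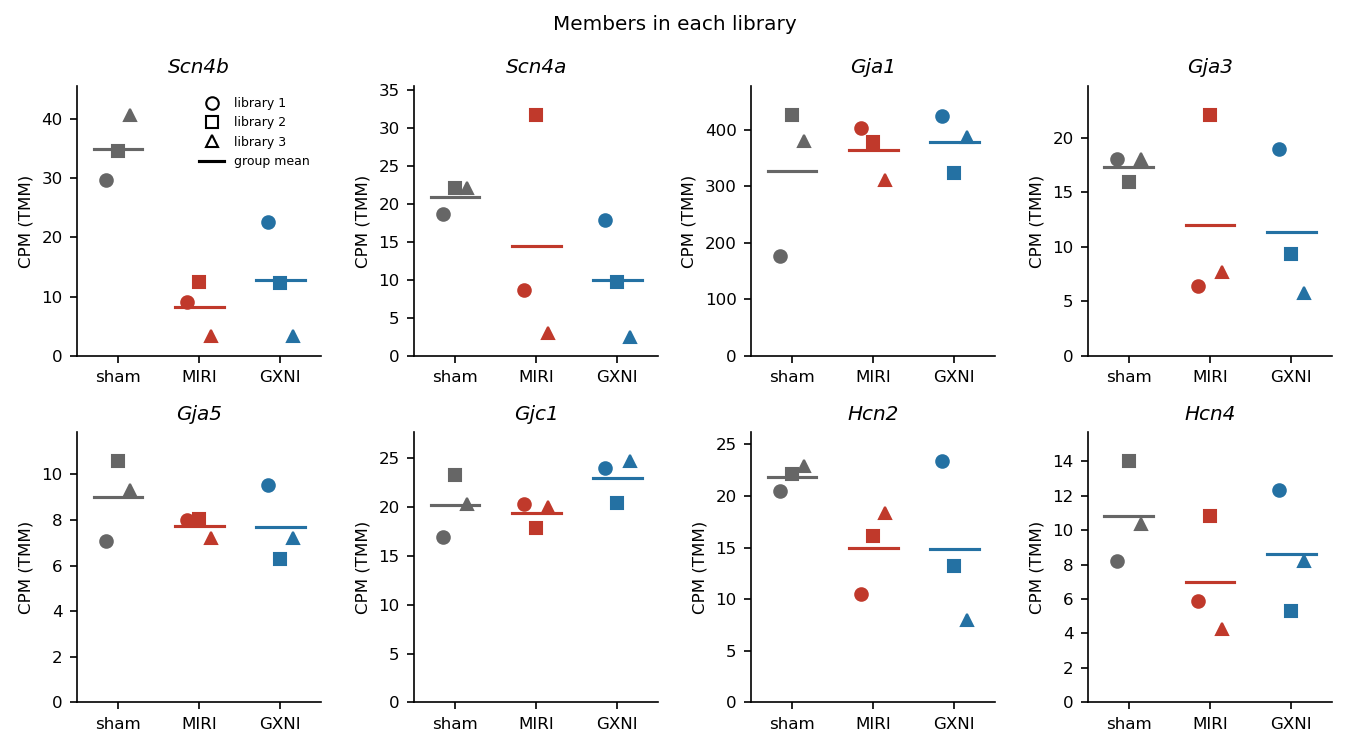
CPM of each member in the 9 libraries, with 1 point per library shaped by its number, 1 colour per group and a line at the group mean, on axes from 0. For Scn4b all MIRI and GXNI points lie below all sham points, for Scn4a and Gja3 the square of MIRI 2 lies above the sham points, and sham 1 is the low point of Gja1 at 177 CPM.

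The connexins did not pass the test in MIRI hearts. Gja1, on chromosome 10 at 56377330 to 56402513 (plus strand), had 177, 426 and 380.2 CPM in sham and 404, 379 and 312 CPM in MIRI. Sham 1 was the low library here, and the other 8 libraries lay between 312 and 426 CPM. The log2 fold change was 0.17 (SE 0.32) and turned to -0.14 without sham 1. Gja5, on chromosome 3 at 96904693 to 97077416 (plus strand), encodes Cx40 of the atria, the His-Purkinje system and arterial endothelium. It had 7.09, 10.6 and 9.31 CPM in sham and 7.997, 8.05 and 7.19 CPM in MIRI, a log2 fold change of -0.20 (SE 0.20). Gjc1, on chromosome 11 at 102799579 to 102819700 (minus strand), encodes Cx45, known from the nodes and from vascular muscle. Its 17.0, 23.3 and 20.3 CPM in sham and 20.3, 17.9 and 20.01 CPM in MIRI gave a log2 fold change of -0.05 (SE 0.16), the smallest of the members in size. For Gja1, Gja5 and Gjc1 the groups overlapped and the adjusted p was 0.516 or more by edgeR's quasi-likelihood test.

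Gja3 differed from these 3 connexins in its pattern. It lies on chromosome 14 at 57034460 to 57058100 (minus strand) and encodes Cx46, which is known best from the lens. The sham libraries had 18.0, 15.9 and 18.0 CPM, a coefficient of variation of 7.07%. The MIRI libraries had 6.37, 22.1 and 7.67 CPM, again with MIRI 2 above all sham libraries and MIRI 1 and 3 below them. Over all libraries the log2 fold change was -0.52 (SE 0.46, adjusted p = 0.471, edgeR quasi-likelihood). The 5 lens markers searched for were all under 1 CPM in every library, and Mip, Lim2 and Crygs had no count.

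Of the pacemaker channels, Hcn2 came nearest to a call. Hcn2, on chromosome 10 at 79716634 to 79736108 (plus strand), had 20.5, 22.2 and 22.9 CPM in sham and 10.5, 16.1 and 18.4 CPM in MIRI. The groups did not overlap, a separation also seen in 33.7% of all genes tested and, toward lower levels, in 17.0%. The log2 fold change was -0.54 (SE 0.22) with an unadjusted p of 0.0416 and an adjusted p of 0.163 by edgeR's quasi-likelihood test, which missed both limits. Hcn4, on chromosome 9 at 58823412 to 58863175 (plus strand), is the main HCN channel of the sinus node. It had 8.22, 13.99 and 10.3 CPM in sham and 5.86, 10.8 and 4.29 CPM in MIRI, where the groups overlapped (log2 fold change -0.63, SE 0.37, adjusted p = 0.299, edgeR quasi-likelihood). Of 10 Purkinje and conduction markers, Cpne5 and Vsnl1 stayed under 1 CPM in every library. The sum was 74.8 to 89.7 CPM in sham and 58.7, 87.6 and 76.7 CPM in MIRI 1 to 3. Bmp2 alone made up 5.72, 1.06 and 24.8 CPM of these MIRI sums, against 1.02 to 1.54 CPM in sham, so the overlap of MIRI 3 with sham leans on this gene. The atrial genes Myl7, Sln and Bmp10 had at most 1.76 CPM in any library. Each was highest in MIRI 2, with 30, 23 and 1 counts there. In MIRI 1 and 3 Myl7 had 0 and 0 counts and Sln 1 and 0. The summed list of 10 atrial markers, at 111 to 170 CPM in sham and 269 to 740.2 CPM in MIRI, consisted in MIRI mostly of Nppa, which injured ventricles also make.

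Without the library labelled MIRI 2, 4 members were called lower in MIRI, beside 30.2% of 15207 genes called in either direction and 13.3% lower. These were Scn4b (log2 fold change -2.49, SE 0.38), Scn4a (-1.85, SE 0.39), Gja3 (-1.30, SE 0.15) and Hcn4 (-1.09, SE 0.27). Their adjusted p were 0.00222, 0.00774, 0.000813 and 0.0149 by edgeR's quasi-likelihood test. In linear terms they were 5.63, 3.61, 2.46 and 2.13 times lower. Hcn2 stayed at -0.59 (SE 0.23, adjusted p = 0.0673, edgeR quasi-likelihood) and was not called. Gja1 at 0.13 (SE 0.34), Gja5 at -0.24 (SE 0.20) and Gjc1 at 0.00 (SE 0.15) kept small fold changes. The median of the 8 members was -0.84, that of all genes -0.01. Summed cardiomyocyte markers of the remaining MIRI libraries were 26916 and 30847 CPM against 38788 to 42278 CPM in sham, so the sum moved the same way. Myh6 alone was at 7398 and 6598 CPM in MIRI 1 and 3 against 14474 to 16464 CPM in sham. Actc1, at 5314 and 10465 CPM against 4120 to 5529 CPM, and Actn2 were not lower. The other markers of the list were below all sham libraries in both. The part of these markers in the fold changes was not tested.

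**Figure D3:**
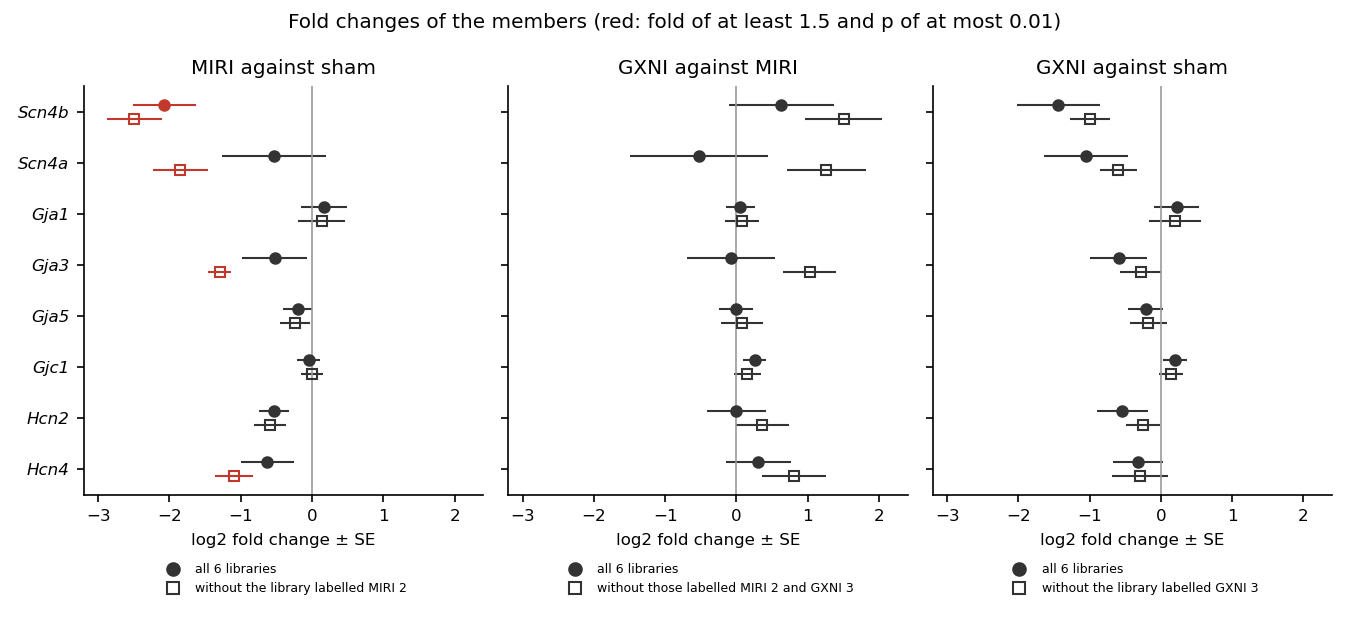
Log2 fold change of the 8 members with its standard error in the 3 comparisons, with filled circles for all 6 libraries of a comparison and open squares for the fit without MIRI 2, GXNI 3 or both, called genes in red. In MIRI against sham only Scn4b is red with all libraries, and Scn4a, Gja3 and Hcn4 join it without MIRI 2.

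Sequence before the start sites of these genes was searched for short motifs of factors known in heart and general transcription. The promoter table of RefSeq (GRCm38.p6) held 8 promoters of 7 members, named here without Gjc1. The 250 bases before each start were searched on both strands for 7 motifs. These were MEF2 (the letters CTA and TAG with any 4 bases between them), the TATA box with the letters TATAAA, the T-box motif with AGGTGT, the NKX2-5 motif with AAGTG, the GATA motif with the letters AGATAA, the GC box with GGGCGG and the E-box with CANNTG. Over 32817 promoters of this table a match was found in 3.2%, 12.4%, 11.8%, 40.7%, 9.99%, 32.7% and 66.2%, in that order. Printed are Gja3 and Hcn4, called lower without MIRI 2, and Gja1 and Gja5, which were not, and only bases outside annotated exons are shown. Capitals mark matches other than the E-box.
Gja3, chr14:57058101-57058280 minus strand: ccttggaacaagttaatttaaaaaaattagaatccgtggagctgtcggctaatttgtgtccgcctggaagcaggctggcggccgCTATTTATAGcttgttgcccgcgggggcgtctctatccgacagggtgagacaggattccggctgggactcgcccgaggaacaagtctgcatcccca
Hcn4, chr9:58822699-58822948 plus strand: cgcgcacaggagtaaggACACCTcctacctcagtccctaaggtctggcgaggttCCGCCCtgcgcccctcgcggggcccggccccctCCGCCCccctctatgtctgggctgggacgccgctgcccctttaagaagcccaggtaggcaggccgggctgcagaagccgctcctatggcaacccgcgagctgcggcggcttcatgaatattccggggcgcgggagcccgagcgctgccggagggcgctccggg
Gja1, chr10:56377050-56377299 plus strand: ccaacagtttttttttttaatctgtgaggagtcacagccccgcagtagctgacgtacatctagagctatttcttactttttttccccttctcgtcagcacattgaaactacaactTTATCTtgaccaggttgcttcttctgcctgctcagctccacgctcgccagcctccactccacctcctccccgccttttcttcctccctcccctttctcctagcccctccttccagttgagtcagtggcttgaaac
Gja5, chr3:97032152-97032401 plus strand: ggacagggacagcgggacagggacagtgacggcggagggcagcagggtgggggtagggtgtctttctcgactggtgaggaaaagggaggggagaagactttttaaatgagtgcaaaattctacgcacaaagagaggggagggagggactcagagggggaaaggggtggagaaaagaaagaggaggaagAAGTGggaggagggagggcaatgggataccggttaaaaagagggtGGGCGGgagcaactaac
The Gja3 sequence holds a MEF2 match that begins 166 bases before the start, and the TATA box letters on the other strand lie inside it. The other Gja3 promoter of the table held 3 E-boxes and a T-box match that overlaps 1 of them. The Hcn4 sequence holds a T-box match at 233 bases and GC boxes at 196 and 163 bases. Gja1 has a GATA match at 135 and an E-box at 23 bases, and Gja5 has an NKX2-5 match at 62 and a GC box at 17 bases. No motif of the 7 was found in the windows of Scn4b and Scn4a, and Hcn2 held 3 GC boxes and an E-box. Of the 250 bases, the longest stretch outside annotated exons was 21 bases for Scn4b and 64 for Scn4a. Their windows thus largely cover exons of the genes themselves, and the search says little about sequence before their annotated starts. Of the members called lower without MIRI 2, Gja3 and Hcn4 both held a T-box match, a motif found in 11.8% of the promoters searched. In Gja3 it lay in the promoter not printed, 217 bases before its start. Whether all members called lower share a motif cannot be decided by this search, because the windows of Scn4b and Scn4a largely cover exons. A match is a run of letters and not a binding site.

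The second comparison, GXNI against MIRI, asked whether the treatment changed these genes in injured hearts. It called 0 of 8 members, beside 0.0203% of 14762 genes tested. By edgeR's quasi-likelihood test 0 members had an unadjusted p under 0.05, beside 0.318% of all genes, and DESeq2 called 0, beside 0.0391%. The fold changes were on both sides of 0, with 4 of 8 members below it and a median of 0.03. Scn4b had 22.5, 12.3 and 3.36 CPM in GXNI 1 to 3 against 9.07, 12.4 and 3.33 CPM in MIRI. GXNI 1 was above all MIRI libraries, the other 2 were within their range, and the log2 fold change of 0.63 (SE 0.73) turned to -0.08 without GXNI 1. For Scn4a the GXNI libraries had 17.8, 9.72 and 2.44 CPM, and the log2 fold change of -0.53 (SE 0.97) turned to 0.80 without MIRI 2.

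Gjc1 was the 1 member whose GXNI and MIRI libraries did not overlap. It had 23.9, 20.4 and 24.7 CPM in GXNI, and the lowest of these was just above the highest MIRI library, at 20.3 CPM. The log2 fold change was 0.25 (SE 0.16) with an unadjusted p of 0.164 and an adjusted p of 0.99999 by edgeR's quasi-likelihood test. Such a separation was seen in 2.67% of all genes. The remaining members were Gja1 at 423, 324 and 387 CPM, Gja3 at 19.0, 9.32 and 5.80 CPM, and Gja5 at 9.54, 6.30 and 7.19 CPM. Hcn2 had 23.3, 13.2 and 8.01 CPM and Hcn4 12.3, 5.31 and 8.18 CPM. Their log2 fold changes were between -0.08 for Gja3 and 0.30 for Hcn4 (SE 0.46), and the groups overlapped for each. GXNI 1 was the highest GXNI library for 7 of the 8 members, the exception being Gjc1.

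Without both MIRI 2 and GXNI 3 the fold changes of all 8 members were above 0, with a median of 0.59 beside 0.00 for all genes. Still 0 of 8 members passed the test, beside 4.99% of 14984 genes. Scn4b was at 1.502 (SE 0.53, unadjusted p of 0.0312), Scn4a at 1.26 (SE 0.56) and Gja3 at 1.03 (SE 0.37, unadjusted p of 0.0335) on the log2 scale. Their adjusted p were 0.233, 0.283 and 0.238 by edgeR's quasi-likelihood test. Hcn4 was at 0.81 (SE 0.45), Hcn2 at 0.36 (SE 0.37), and the connexins Gja1, Gja5 and Gjc1 at 0.07, 0.07 and 0.15. This fit rests on 2 libraries in each group.

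The third comparison, GXNI against sham, again had Scn4b as the member farthest from sham. It shares the sham libraries with the first comparison and the GXNI libraries with the second, so the 3 are not independent. Called were 0 of 8 members, beside 4.21% of 14695 genes. By edgeR's quasi-likelihood test 1 member, Scn4b, had an unadjusted p under 0.05, beside 19.8% of all genes (unadjusted p of 0.0429, adjusted p = 0.243), and DESeq2 called Scn4b as well, beside 5.01% of genes by that tool. All GXNI libraries were below all sham libraries for Scn4b and for Scn4a, a separation seen in 29.4% of all genes and toward lower levels in 15.9%. Scn4b was 2.71 times lower, with a log2 fold change of -1.44 (SE 0.58), and Scn4a was at -1.05 (SE 0.59, adjusted p = 0.337, edgeR quasi-likelihood). The other fold changes were -0.60 for Gja3, -0.54 for Hcn2, -0.32 for Hcn4, -0.22 for Gja5, 0.20 for Gjc1 and 0.22 for Gja1, all within overlapping groups.

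This comparison turned on GXNI 1, which lay nearest to sham. Without it, 3 members were called lower, beside 17.8% of 14990 genes in either direction and 7.08% lower. They were Scn4b at -2.14 (SE 0.51, adjusted p = 0.0382), Gja3 at -1.18 (SE 0.23, adjusted p = 0.0267) and Hcn2 at -1.03 (SE 0.23, adjusted p = 0.0339) by edgeR's quasi-likelihood test. Without GXNI 3 instead, 0 members were called by edgeR beside 3.57% of genes, and Scn4b was at -0.99 (SE 0.28, adjusted p = 0.217). Summed cardiomyocyte markers were 35411 CPM in GXNI 1, 28932 CPM in GXNI 2 and 27944 CPM in GXNI 3, so their sum too was highest in GXNI 1. Within the GXNI group Actc1 and Actn2 were lowest in GXNI 1, and the other markers of the list were highest there. GXNI 1 also had the highest summed mesothelial markers, 75.6 CPM against 8.93 to 25.1 CPM in the other 8 libraries, and the highest fibroblast markers. Its Purkinje and conduction markers, at 130 CPM against 58.7 to 95.0 CPM, were the highest too. So were its skeletal muscle markers, at 40.3 against 15.3 to 30.3 CPM, and its Schwann and neural markers, at 22.3 against 12.2 to 19.5 CPM. Endothelial and macrophage markers were not highest in GXNI 1. The part of all these markers in the values of GXNI 1 was not tested.

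Among 10 other sodium channel subunits examined, 4 passed the filter on low counts. None of these 4 was called by edgeR or DESeq2 in MIRI against sham, beside 8.97% and 8.07% of all genes. The subunit Scn3b was the 1 with an unadjusted p under 0.05 by edgeR, beside 28.3% of all genes. The median of the 4 was -0.46 on the log2 scale. With so few genes tested, these counts cannot be told from the shares over all genes. The beta subunits Scn2b and Scn3b had at most 1.43 CPM in any library. Without MIRI 2, where 16.9% of all genes were called higher and 13.3% lower, Scn3b (1.62, SE 0.44) was called higher and Scn7a (-1.45, SE 0.35) lower. Of 14 other connexins examined, 3 passed the filter. In MIRI against sham 0 of them were called by edgeR or DESeq2 and 0 had an unadjusted p under 0.05 by edgeR, beside the same shares of all genes. Gja4, a connexin of arterial endothelium, was the most abundant of the 14 by counts, at 7.996 to 15.4 CPM.

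Of 6 other pacemaker channels examined, 5 passed the filter. In MIRI against sham 0 of them were called by edgeR or DESeq2, beside 8.97% and 8.07% of all genes. By edgeR 0 had an unadjusted p under 0.05, beside 28.3% of all genes. Without MIRI 2, 4 of the 5 were called lower, beside 13.3% of all genes. Among them were Kcnj3 and Kcnj5, whose products form the acetylcholine-gated potassium channel, with log2 fold changes of -2.17 (SE 0.17) and -1.04 (SE 0.21), and the T-type calcium channel Cacna1g (-1.54, SE 0.26). The remaining channel, Cacna1d, went the other way without being called, at 5.30 and 3.72 CPM in MIRI 1 and 3 against 1.39 to 3.28 CPM in sham. As for Scn4a and Gja3, Kcnj3 was highest in MIRI 2 and GXNI 1 within their groups, with 43.9, 44.2 and 48.3 CPM in sham, 11.6, 63.1 and 8.44 CPM in MIRI and 52.8, 22.1 and 5.98 CPM in GXNI. Both also exceeded all sham libraries for this gene.

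Transcription factors of the conduction system had 1 call by edgeR among 11 tested in MIRI against sham, beside 8.97% of all genes, and 2 by DESeq2, beside 8.07%. The edgeR call was Irx3 (-0.77, SE 0.19), a factor of the Purkinje network, which was lower. Without MIRI 2, where 30.2% of all genes were called, Tbx5 (-1.51, SE 0.16), Etv1 (-1.14, SE 0.21) and Hopx (-0.79, SE 0.12) were among 4 called lower, and Id2 (1.69, SE 0.22) was called higher. In GXNI against sham, Tbx3 (0.67, SE 0.19), a repressor known from the nodes, was called higher and Hopx (-0.60, SE 0.15) lower by edgeR, beside 4.21% of all genes, and DESeq2 called 2 of the 11. Without GXNI 3, Tbx3 (0.78, SE 0.17) was the 1 factor called by edgeR, beside 3.57% of all genes. Of 22 partners of the intercalated disc, where gap junctions and sodium channels sit, 6 were called higher and 0 lower by edgeR in MIRI against sham, beside 6.15% and 2.82% of all genes, and DESeq2 called 6. Xirp2 (2.96, SE 0.41), Xirp1 (2.07, SE 0.35), Vcl (0.98, SE 0.16) and Cav3 (0.93, SE 0.13) were among them. Without MIRI 2, 5 were called higher and 6 lower, beside 16.9% and 13.3% of all genes, the latter including Ank2 (-1.22, SE 0.11), an adaptor that anchors ion transporters. In GXNI against sham the adhesion protein Cxadr (0.60, SE 0.14) was the 1 partner called by edgeR, beside 4.21% of all genes. DESeq2 called 4, beside 5.01%, and 9 had an unadjusted p under 0.05 by edgeR, beside 19.8%. Without GXNI 3, Cxadr (0.64, SE 0.14) was again the 1 called by edgeR. Of the other sodium channel subunits, connexins and pacemaker channels, edgeR called 0 in GXNI against sham with and without GXNI 3, beside 4.21% and 3.57% of all genes. With GXNI 3, DESeq2 called 0, beside 5.01%, and 0 had an unadjusted p under 0.05 by edgeR, beside 19.8%.

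**Figure D4:**
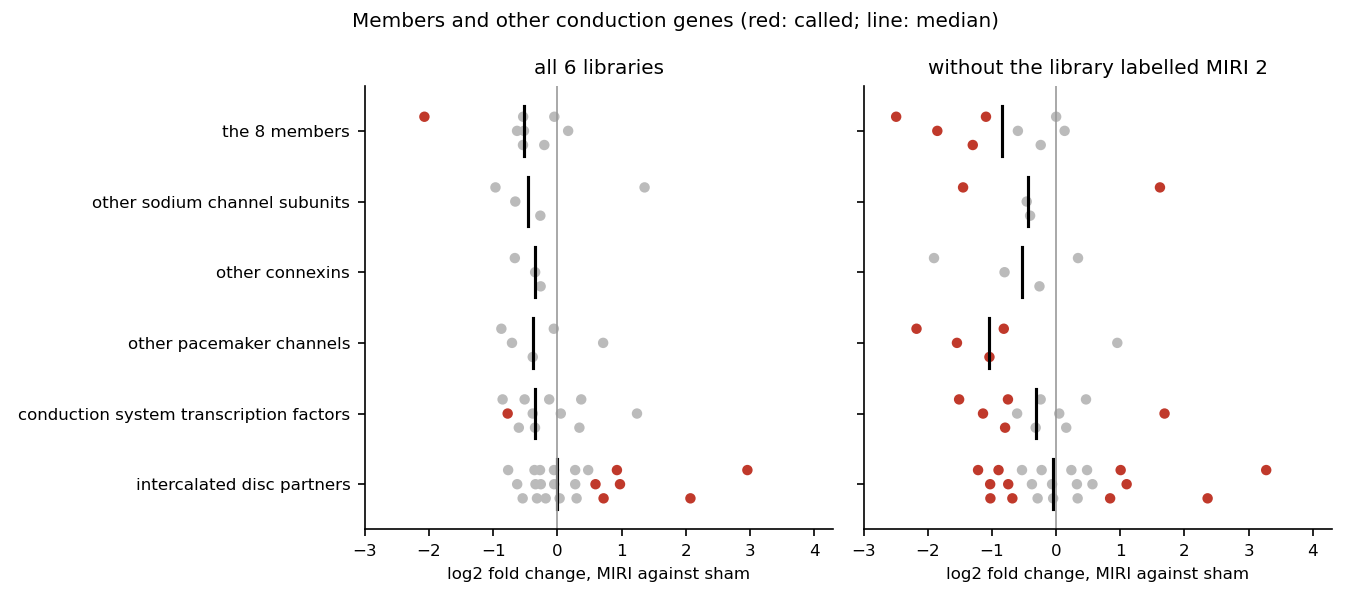
Log2 fold changes in MIRI against sham for the 8 members and the tested genes of 5 lists of other conduction genes, with 1 point per gene, called genes in red and a line at each median, for all 6 libraries on the left and without MIRI 2 on the right. The members' median is at -0.53 on the left and -0.84 on the right, and Xirp2 is the point farthest to the right in the left panel.

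GXNI against MIRI called 0 genes of these 5 lists by edgeR and by DESeq2, beside 0.0203% and 0.0391% of all genes. The transcription factor Tbx3 was the 1 gene with an unadjusted p under 0.05 by edgeR, beside 0.318% of all genes. Without MIRI 2 and GXNI 3, 4.99% of 14984 genes were called. Of these lists, Kcnj3 (1.92, SE 0.45) and Tbx5 (1.08, SE 0.26) were called higher in GXNI, and Id2 (-1.62, SE 0.24) and Xirp1 (-1.51, SE 0.37) lower. Kcnj3 was among 5 pacemaker channels tested, Tbx5 and Id2 among 11 factors and Xirp1 among 22 disc partners. None of the 5 sodium channel subunits and 3 connexins tested was called. The adjusted p of Kcnj3, Tbx5, Id2 and Xirp1 were 0.188, 0.189, 0.182 and 0.189 by edgeR's quasi-likelihood test.

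The members' patterns over the 9 libraries fell between 2 extremes. The likeness of 2 genes is given as the root mean square difference of their log2 CPM after each was centred on its own mean, as a description over libraries that share group and depth. Gja5 and Gjc1 were the most alike of the members at 0.22, followed by Gja1 and Gjc1 at 0.28 and Gja1 and Gja5 at 0.31. These 3 connexins varied least over all libraries, with a coefficient of variation of 21.9% for Gja1, 17.1% for Gja5 and 12.6% for Gjc1. Scn4b and Scn4a varied most, at 73.7% and 64.9%, and their mutual difference was 0.61. Gja3, at 46.02%, was nearer to Hcn2 (0.42) than to any other connexin, of which Gja5 was the nearest at 0.62. Over the 7 libraries without MIRI 2 and GXNI 3, Gja5 and Gjc1 were again the most alike at 0.18, and Scn4b and Scn4a came next at 0.27. The coefficients of variation were then 64.3% for Scn4b, 51.2% for Scn4a, 40.6% for Gja3, 25.3% for Gja1, 18.8% for Gja5 and 11.1% for Gjc1. Gja3 was still nearest to Hcn2, at 0.33.

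Over 15199 other genes, those nearest to Scn4b were Sgo2a (0.24), which protects chromosome cohesion, and the clock gene Per3 (0.29). The nearest to Scn4a were Htra3 and Tppp at 0.28 and 0.30. For Gja3 they were Ephb6 (0.12) and Naprt (0.15), and for Gja1 C030034I22Rik (0.14) and Apba1 (0.15). Gja5 was nearest to Hacd4 (0.08) and the endothelial receptor gene Tek (0.09), and Gjc1 to Tnks1bp1 (0.09) and Itpr1 (0.10). Hcn2 was nearest to Tmem9 (0.16) and Gm44509 (0.17), and Hcn4 to Cttnbp2 (0.18) and Ebf2 (0.19). Over the 7 libraries without MIRI 2 and GXNI 3, 3 of these 16 genes were still among the 2 nearest to their member, and the others ranked as low as 44. Small differences are easier to reach for genes that vary little, such as Gja5 and Gjc1, than for Scn4b.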

How the data were processed

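The authors deposited raw counts per gene for 9 libraries, 3 per group, in 1 table, and the submitters' processing notes name HISAT2, Subread, featureCounts, DESeq2 and the build mm10; the strand setting is not given in the sources used here. Of 54532 identifiers, 54495 had a symbol in the table used. Counts were tested with edgeR 4.0.16 (R 4.3.3): TMM scaling, filterByExpr with its defaults, and a quasi-likelihood F test with no covariate on all genes of the 2 groups compared, with Benjamini-Hochberg adjustment. Calls took the limits the authors used, 1.5 times or more and unadjusted p no larger than 0.01. CPM were scaled with TMM factors over the 9 libraries. Log2 CPM used a prior count of 2. DESeq2 1.42.0 was an alternative. The code was tested on simulated counts. Members and lists were chosen with earlier results of these data known. Named were all 8 members, at most 4 called genes per list and comparison with the smallest p, the 2 genes nearest in pattern to each member, and defining markers; other genes were singled out after their values were seen. No pair of libraries agreed within counting noise (chi-square per degree of freedom at least 14.4). Some genes are not reported here and were left out of the lists.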

Additional observations from a re-analysis of the deposited data

How the results depend on the processing

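For members called in MIRI against sham, 1 in the fit as reported, the count was 0 with adjusted p or with all 9 libraries in 1 fit and 1 to 4 when single libraries were left out, 4 being without MIRI 2. For GXNI against sham, 0 as reported, it was 1 with DESeq2 or with no filter and 0 to 3 when single libraries were left out, 3 being without GXNI 1. All genes called in MIRI against sham, 1313, became 2 with adjusted p, 2251 with DESeq2, 2406 with no filter, 800.0 with all 9 libraries in 1 fit and 514 to 4592 with single libraries left out. In GXNI against MIRI the 3 called genes became 0, 11, 10 and 9 under the same settings, 1 to 12 with single libraries left out and 748 without MIRI 2 and GXNI 3. In GXNI against sham 618 became 0 with adjusted p, 1401 with DESeq2, 1425 with no filter and 175 to 2665 with single libraries left out. The causes were not tested.

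Single libraries turned the direction of several fold changes that did not pass the test. In MIRI against sham the ranges were -0.14 to 0.39 for Gja1 and -0.17 to 0.058 for Gjc1. In GXNI against MIRI they were -0.084 to 1.08 for Scn4b, -1.26 to 0.80 for Scn4a, -0.062 to 0.16 for Gja1, -0.68 to 0.72 for Gja3, -0.21 to 0.12 for Gja5, -0.50 to 0.29 for Hcn2 and -0.061 to 0.77 for Hcn4, and without both libraries Scn4a was at 1.26, Gja3 at 1.03, Gja5 at 0.075 and Hcn2 at 0.36. In GXNI against sham the range was -0.083 to 0.45 for Gja1. The scaling of the libraries changed no direction and no call of a member.

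With the replicate number as a block, the members called were 1, 0 and 0 and all genes called 1065, 3 and 573 in the 3 comparisons. The labels do not say that the numbers pair the mice. Same-numbered libraries of MIRI and sham correlated at -0.10, 0.05 and 0.11 in their deviations from the group means, and those of GXNI and MIRI at -0.46, 0.15 and 0.73. Not every library correlated best with its own number. These correlations cannot decide whether mice were paired, because the injured libraries differed strongly within their groups.

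With the longest transcript as the length, the sham levels were 84.3 for Gja1, 6.27 for Gja3, 2.45 for Gja5 and 5.92 CPM per kb for Gjc1. Leaving out MIRI 2 and GXNI 3 was an alternative chosen after seeing the data. Without MIRI 2 the mean level per kb in MIRI went from 2.05 to 0.823 for Scn4a and from 4.06 to 2.37 for Gja3. For Gja1 it went from 35.6 to 34.9 and for Gjc1 from 3.87 to 4.03. Without GXNI 3 the mean in GXNI went from 2.56 to 3.50 for Scn4b and from 36.9 to 36.4 for Gja1. Members had at least 42 counts in every library, and the precision is that of 3 libraries per group.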
